A study of Mus musculus with 12 samples.

Results

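The microRNA mmu-miR-210 was followed across 12 single-colour Agilent arrays of 3T3-L1 cells, a clonal mouse fibroblast line that turns into fat cells in culture. It is 1 of the 611 mouse miRNAs on the array and was picked out by its name in the scanner data, with both of the probes that carry that name (2 of 1759 mouse probes). The arrays formed 4 groups of 3, and all cells were grown in Dulbecco's medium with fetal bovine serum. The preadipocytes received no inducing agent. The MDI cells were grown to confluence and induced with 3-isobutyl-1-methylxanthine, dexamethasone and insulin for 3 days. They then received insulin for 2 days and plain medium for 2 days, and the record ends at day 7. The lithium cells were preadipocytes given lithium chloride at 25 mM, and the lithium plus MDI cells were given lithium and the inducing mixture. No schedule or end day is stated for the groups other than MDI, so time in culture and treatment cannot be told apart. The labels do not give separate cultures for the 3 samples of a group. Each p-value therefore rests on the spread among these samples alone, and that spread may be technical.

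A miRNA is a short RNA that guides the silencing complex to messenger RNAs, mainly through its seed, the bases near its 5′ end. Transcription of miR-210 is driven by hypoxia-inducible factors when oxygen is low, and among its known targets is the messenger RNA of Iscu, a scaffold protein for iron-sulphur clusters in mitochondria. WNT ligands stabilise β-catenin, which acts with Tcf and Lef transcription factors to hold preadipocytes back from becoming fat cells. Lithium inhibits GSK3, the kinase that marks β-catenin for destruction, and so switches the pathway on without a ligand. The study followed miR-210 as a regulator of fat cell formation that acts on Tcf7l2, one of those transcription factors. The comparisons ask how the level of miR-210 differs when differentiation is induced, when lithium is given, and when both are done. WNT signalling itself was not measured on these arrays.

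RefSeq places both arms and the hairpin of miR-210 on the minus strand of chromosome 7 in GRCm38.p6. They are shown because the array measures this short RNA and because its seed sets it apart from the other mouse miRNAs. Bases 2 to 8, the seed, are in capitals in the mature RNA, and the mature RNA is in capitals in the hairpin. All are written 5′ to 3′.
miR-210-3p at chr7:141221407-141221428: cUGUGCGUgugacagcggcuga
miR-210-5p at chr7:141221445-141221466: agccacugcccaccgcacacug
miR-210 hairpin at chr7:141221384-141221493: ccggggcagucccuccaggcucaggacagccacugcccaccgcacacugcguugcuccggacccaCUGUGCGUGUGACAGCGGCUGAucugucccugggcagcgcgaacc
The array name gives no arm, and miR-210-3p was taken as the measured RNA because the older name without an arm is usually its name. No value of the files bears on that choice, and the probe sequences were not used here. The mature RNA is 22 bases long and fills positions 66 to 87 of the hairpin of 110 bases. The seed is carried by 1 of the 1679 mature mouse entries of the RefSeq table, miR-210-3p itself, so no other miRNA of the array was grouped with it by seed. Its GC content of 63.6% is above the median of 52.2% over those entries, and 82.4% of them have a lower one. The hairpin overlaps 0 other genes of the RefSeq table and lies between Rassf7 and Gm51460.

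Between 126 and 178 miRNAs were detected on an array, and the share of mouse spots well above background was 17.9% to 24.2%. Of 7 markers of mesenchymal cells, among them miR-199a and miR-214, 7 were detected and 6 of them on all 12 arrays. Of 5 miRNAs known from fat cells, 5 were detected and 4 of them on all 12 arrays. The other, miR-378, was detected on too few arrays of any group to be tested. Of the markers of other cell types, miR-205 (1 of 6 for epithelium) and miR-128 (1 of 4 for neural tissue) were detected on some arrays, and 0 of 4 for muscle, 0 of 5 for blood and 0 of 2 for liver and endothelium on any. Slide 1 held the 3 preadipocyte arrays and MDI array 1, and slide 2 held the other 8 arrays, so the preadipocyte group has no array on slide 2. Only the MDI group spans both slides. A fit with slide as a block therefore takes its slide term from MDI array 1 against MDI arrays 2 and 3 alone. Over the tested miRNAs, 6 arrays had a higher mean correlation with some other group than within their own. Lithium plus MDI array 3 stood farthest from its own group, with a mean r of 0.924 against 0.965 with the preadipocytes. Preadipocyte array 3 and lithium array 1 stood next lowest with their own groups, at 0.939 and 0.942. Fits without lithium plus MDI array 3 are given below. That array stands out on these same values, so leaving it out lowers the spread by that choice. A smaller p without it is therefore no added evidence.

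By group mean in the main fit, the miR-210 signal was highest in the preadipocytes, next in lithium cells, and lowest in the cells that had received MDI. The preadipocytes and the lithium cells shared no slide. With slide as a block, lithium stood 0.39 above the preadipocytes on the log2 scale, so the order of these groups is not settled. Averaged over cells without and with lithium, the level with MDI was 2.42-fold lower, a log2 difference of -1.27 ± 0.31 (SE). That difference passed the limma test (adjusted p = 0.0452), but the call was lost in 18 of 24 alternatives, among them slide as a block (adjusted p = 0.147) and the replicate block (adjusted p = 0.0503). Of the differences attached to lithium none passed, although lithium against preadipocytes did, at -1.47 (adjusted p = 0.0349, limma), when arrays were scaled over all mouse probes. Under that scaling the median difference of all tested miRNAs was itself -0.90. Relative to it miR-210 stood at -0.58, against -0.51 in the main fit. The values are log2 of the background-subtracted intensity divided by the array's own 75th percentile over 181 probes detected on every array, so 0 is the level of that percentile. For the brighter of the 2 probes, the 3 preadipocyte arrays stood at -1.71, -1.86 and -2.35, a mean of -1.98 ± 0.33 (SD, n = 3). The 3 MDI arrays stood at -2.91, -3.63 and -4.12, a mean of -3.55 ± 0.61 (SD, n = 3). Every MDI array was below every preadipocyte array. The 3 lithium arrays stood at -2.80, -2.52 and -2.34, a mean of -2.55 ± 0.23 (SD, n = 3). The 3 lithium plus MDI arrays stood at -4.14, -4.02 and -2.40, a mean of -3.52 ± 0.97 (SD, n = 3). Arrays 1 and 2 of this last group lay close to the lowest MDI array, and array 3, which stood apart from its group over all miRNAs too, lay within the range of the lithium arrays.

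**Figure D1:**
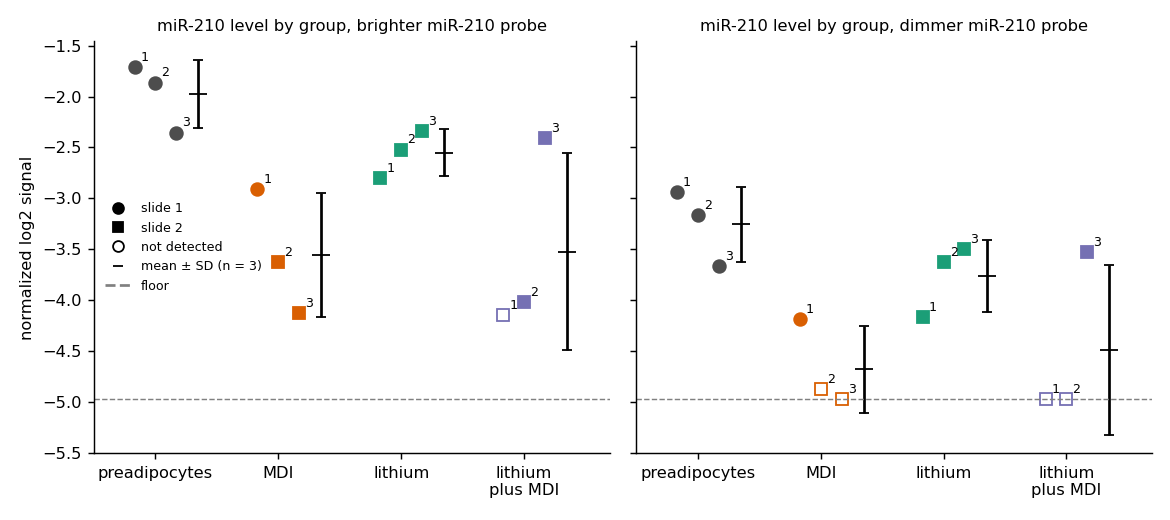
Normalized log2 signal of miR-210 on each of the 12 arrays (vertical axis) by group, with the group mean and SD, for both probes and with the slide marked. The brighter probe's preadipocyte arrays lie between -2.35 and -1.71, above all 3 MDI arrays. A single lithium plus MDI array, at -2.40, lies far above the other 2.

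The spots themselves show how much signal these values rest on. Each probe was printed as 10 spots. Before scaling, the brighter probe read 153, 158 and 153 intensity units on the preadipocyte arrays, after subtraction of the background. On the MDI arrays it read 35.2, 30.9 and 19.7 units. It read 45.5, 71.5 and 81.6 units on the lithium arrays, and 15.0, 24.5 and 90.0 units on the lithium plus MDI arrays. The preadipocyte intensities thus lay close together and above those of all 9 other arrays. The scanner software had subtracted amounts larger than the dimmest of these signals. Taken as the spot's median signal minus its deposited intensity, the median amount was 51.1 to 51.8 units on the preadipocyte arrays and 48.6 on MDI array 1, all on slide 1, and 36.0 to 42.1 units on slide 2. The local background beside the spots was lower, with medians of 15.5 to 20.5 units. The CV over the kept spots of an array was 1.68% to 18.1%. The probe was detected on 11 of 12 arrays: on lithium plus MDI array 1, 4 of the 8 spots kept passed the scanner's background test, and on MDI array 3, 6 of 10 did. The arrays also differed in general brightness, with 75th percentiles of 503, 576 and 780 units for the preadipocytes and 264 to 477 units for the other 9 arrays. Division by that percentile brought preadipocyte array 3 from the intensity of its group to the lowest normalized value of the 3.

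**Figure D2:**
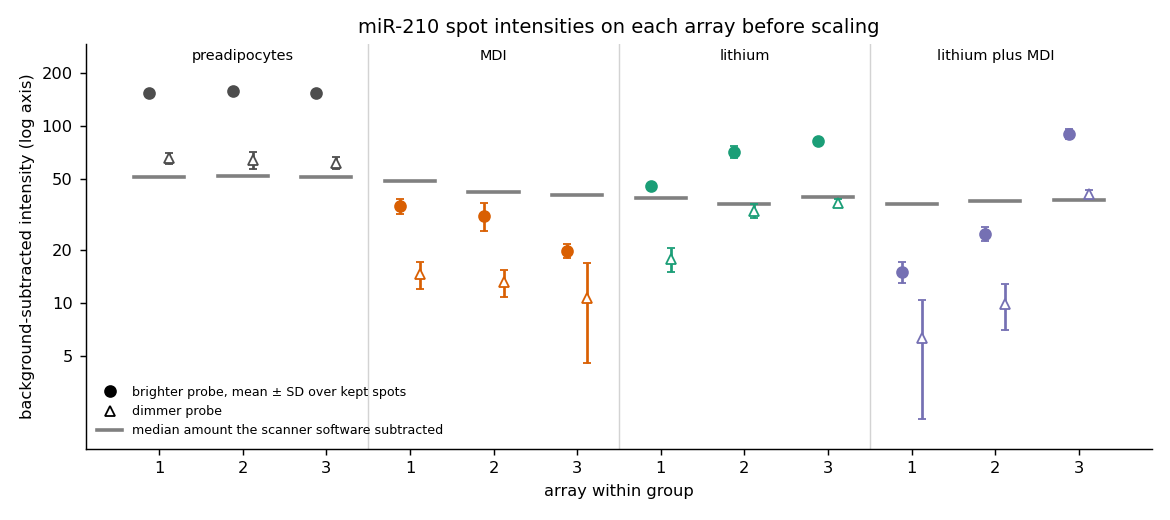
Mean background-subtracted intensity of both miR-210 probes on each array, before scaling, on a log axis, with the SD over the kept spots of an array as bars and, as a grey line, the median amount the scanner software subtracted at the brighter probe. The preadipocyte arrays lie at 153 to 158 units for the brighter probe, above the line, and its lowest value, 15.0 units on lithium plus MDI array 1, lies below a line at 36.0 units.

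The second probe, the dimmer one, followed the same order of groups. Its normalized log2 values were -2.94, -3.17 and -3.66 in the preadipocytes and -4.16, -3.63 and -3.50 in the lithium cells. In MDI cells it stood at -4.19, -4.87 and -4.97, and in lithium plus MDI cells at -4.97, -4.97 and -3.53, where -4.97 is the floor set for dim signals. The dimmer probe was detected on all 3 arrays of both groups without MDI and on 1 of 3 arrays in each group with it. Its average MDI difference was -1.07, with an adjusted p of 0.0503 in a limma fit over 280 probes, in which the brighter probe's adjusted p was also 0.0503. Its differences were -1.42 for MDI against preadipocytes (adjusted p = 0.0539, limma) and -0.73 for lithium plus MDI against lithium (adjusted p = 0.226, limma). The floor sets part of these sizes, because 1 MDI value and 2 lithium plus MDI values lie on it.

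In cells without lithium, the induced group was 2.98-fold lower in miR-210 than the preadipocytes. The log2 difference was -1.58 ± 0.44 (SE), with a 95% interval of -2.52 to -0.63 and an adjusted p of 0.0614 (limma, Benjamini-Hochberg over 157 tested miRNAs), which misses the threshold of 0.05. It was the 5th most negative difference of the 157, whose median was 0.10, and 3.18% of the 157 passed. Groups that did not overlap in this direction were found for 10.8% of the tested miRNAs. The adjusted p was 0.00574 when lithium plus MDI array 3 was left out of the fit, which leaves the difference itself at -1.58, and 0.0398 without lithium plus MDI array 2. The former fit gave calls for 18 of all 157 miRNAs. On slide 1 alone, where 1 MDI array meets the 3 preadipocyte arrays, the difference was -0.93 ± 0.34 (SE, adjusted p = 0.314, limma), and a fit with slide as a block gave -0.93 (adjusted p = 0.490).

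In cells with lithium, the group given MDI was 1.96-fold lower than the group without it. The log2 difference was -0.97 ± 0.44 (SE), with a 95% interval of -1.91 to -0.03 and an adjusted p of 0.153 (limma), and 2 of 3 lithium plus MDI arrays lay below all 3 lithium arrays. In this comparison 0% of the 157 miRNAs passed and 48 were under 0.05 before adjustment (limma), while the median difference of all 157 was 0.39. All 6 arrays were on slide 2. Without lithium plus MDI array 3 the difference was -1.53 with an adjusted p of 0.00980 (limma). That array stood apart on the same values, so the smaller p is no added evidence. Calls over all 157 also moved with single arrays here, up to 38 with 1 array left out.

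The average of these 2 MDI differences, -1.27, had a 95% interval of -1.94 to -0.61 and an adjusted p of 0.0452 (limma). Of the 157 miRNAs, 3.18% passed in that comparison, and 1.27% passed with a lower level, which are miR-210 and 1 other, miR-10b. It was the 3rd most negative of the 157 average differences, whose median was 0.25. A test of the single value that uses no other miRNA, an exact permutation test with arrays exchanged only within the lithium arrays and within those without lithium, gave a two-sided p of 0.015 over 400 arrangements, the smallest possible being 0.005. It is not adjusted for the number of miRNAs, and 48 of the 157 had an unadjusted p under 0.05 for this average (limma). Nor does it take account of slide. Among the arrays without lithium, MDI arrays 2 and 3 were on another slide than the preadipocytes, so slide and MDI are partly mixed in it. The exact permutation test of any difference among the 4 groups gave F = 4.84 and p = 0.0477 over 369600 arrangements. That p was over 0.05 with 10 of the 12 arrays left out in turn, at up to 0.106, and with normexp, at 0.114. It was 0.0410 without MDI array 1 and 0.00247 without lithium plus MDI array 3. Relative to that median miR-210 stood at -1.52, and at -1.56 to -1.52 under the other ways of scaling the arrays, the authors' table included. A normexp background correction, whose offset of 50 units is as large as many of the signals, gave an average difference of -0.62 (adjusted p = 0.936, limma). Its fitted background on preadipocyte array 1 was -664 units. That became 15.1 units when outlier spots and 5 spots of extreme background were left out, and the average difference was then -0.42. Without lithium plus MDI array 3 the average difference was -1.55 (adjusted p = 0.00104, limma), in a fit in which 42 of all 157 passed. Since that array stood apart on the same values, the smaller p is no added evidence. The average difference also passed without MDI array 1 or lithium array 1. It missed the threshold without preadipocyte array 1, 2 or 3, MDI array 2 or 3, lithium array 2 or 3, or lithium plus MDI array 1 or 2, with adjusted p-values of 0.0554 to 0.152, and with slide as a block, at -0.95 (adjusted p = 0.147).

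The authors' own value table, a separate summary of the same arrays, gave the same order for the groups with MDI against those without. Its log2 values for miR-210 were 6.71, 6.61 and 6.43 in the preadipocytes and 5.62, 4.95 and 4.62 in MDI cells. They were 5.88, 6.43 and 6.38 in lithium cells and 4.04, 4.15 and 6.15 in lithium plus MDI cells. On that table the average MDI difference was -1.49, with an adjusted p of 0.0561 (limma) and an exact permutation p of 0.01 within the lithium strata. Lithium plus MDI array 3 stood apart from its group there as well, among the lithium arrays.

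With lithium alone, the level of miR-210 was 1.49-fold lower than in preadipocytes, and the groups overlapped by 1 array of each. The log2 difference was -0.58 ± 0.44 (SE), with a 95% interval of -1.52 to 0.37 and an adjusted p of 0.429 (limma), in a comparison in which 6.37% of the 157 miRNAs passed. The 2 groups shared no slide, and a fit with slide as a block turned the sign, at 0.39 (adjusted p = 0.928, limma). The slide term of that fit rests on MDI array 1 against MDI arrays 2 and 3, not on either of these groups. Among the cells given MDI, lithium plus MDI differed from MDI by 0.03 on the log2 scale, with a 95% interval of -0.91 to 0.98 and an adjusted p of 0.996 (limma). There 0% of the 157 passed and 6 had an unadjusted p under 0.05. The average lithium difference was -0.27 ± 0.31 (SE), with a 95% interval of -0.94 to 0.40 and an adjusted p of 0.845 (limma), and the exact permutation test within the MDI strata gave p = 0.445. In that average 0% of the 157 passed and 20 had an unadjusted p under 0.05. Without lithium plus MDI array 3, the exact permutation p for lithium was 0.04, with an average difference of -0.55. This too is no added evidence, because the array stood apart on the same values. The interval for lithium against preadipocytes reaches a 1.52 lower log2 level, so the arrays do not show that lithium left miR-210 at the same level.

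The difference made by MDI was not shown to depend on lithium. The interaction, the MDI difference with lithium minus that without it, was 0.61 ± 0.62 (SE), with a 95% interval of -0.73 to 1.94 and an adjusted p of 0.613 (limma). In it 0% of the 157 miRNAs passed and 35 had an unadjusted p under 0.05. Without lithium plus MDI array 3 it was 0.05, and with slide as a block it was -0.036. For the remaining pairs of groups, lithium plus MDI stood 2.92-fold below the preadipocytes, a log2 difference of -1.55 (95% interval -2.49 to -0.60, adjusted p = 0.113, limma). That was the most negative value of the 157 in a comparison in which 1.27% passed. Its groups did not overlap, which held in this direction for 3.82% of the tested miRNAs. Without lithium plus MDI array 3 the difference was -2.10 (adjusted p = 0.00200, limma), in a fit in which 36 of all 157 passed. These groups shared no slide, and with slide as a block the difference was -0.58 (adjusted p = 0.723, limma). Lithium stood 2.00-fold above MDI, a log2 difference of 1.00 (95% interval 0.06 to 1.94, adjusted p = 0.218, limma), where 0% passed and 33 had an unadjusted p under 0.05. Every lithium array was above every MDI array, which in this direction held for 12.1% of the tested miRNAs. The comparisons share groups and so are not independent of each other. In the order of levels, preadipocytes, lithium, lithium plus MDI and MDI, no pair of neighbours differed past the threshold.

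**Figure D3:**
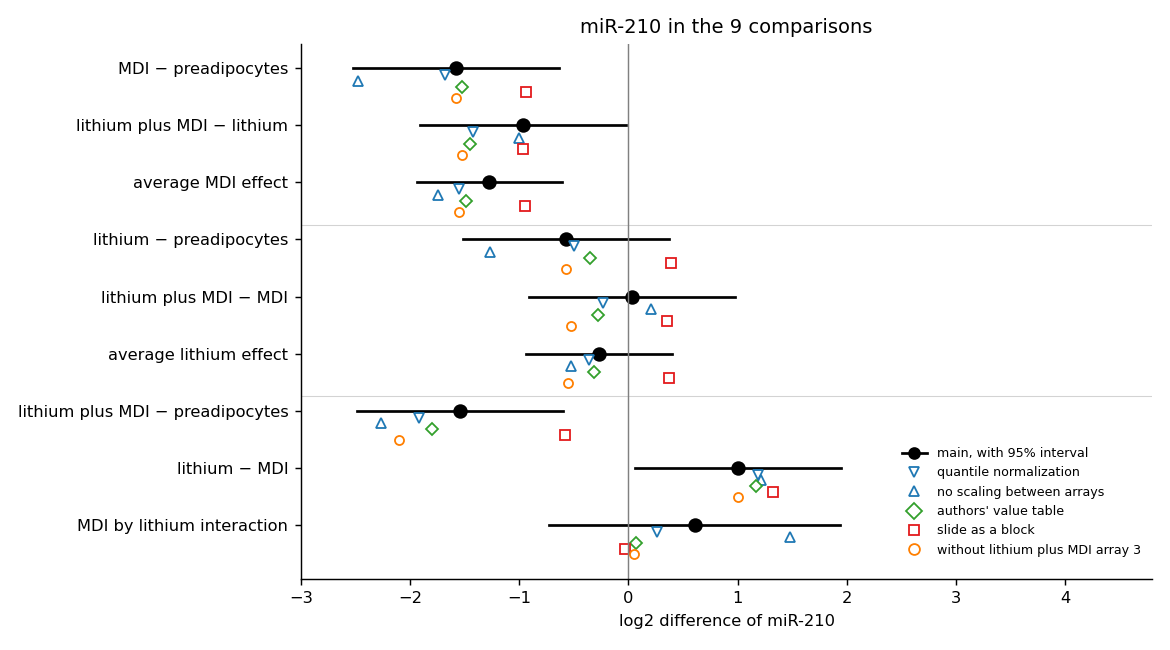
Log2 differences of miR-210 in the 9 comparisons (horizontal axis), with the 95% interval of the limma fit in black and the values under other settings as open symbols. The average MDI difference, -1.27, stays below 0 in each setting drawn, while the average lithium difference, -0.27, is above 0 with slide as a block.

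Among 23 miRNAs reported to respond to low oxygen, 22 were found on the array by name and 21 were tested, miR-210 included. The list gives no direction of response for its members, so their split by direction cannot show whether a response to low oxygen was present. With MDI, on average over lithium, 9 members had a higher and 12 a lower value. Their median was -0.07 against 0.25 over all 157. Of these, miR-210 passed with a lower level and miR-27a, which holds back fat cell formation, with a higher one, by 0.78 ± 0.17 (SE, adjusted p = 0.0291, limma). That is 2 of 21 members, where 3.18% of all 157 miRNAs passed. The count of 2 was 7 without lithium plus MDI array 3 and 5 without lithium array 1, when 42 and 19 of all 157 passed. It was 2 without MDI array 1 and 1 without MDI array 2, when 3 of all 157 passed in each case. It was 0 without any 1 of the other 8 arrays, when 0 of all 157 passed.

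In MDI against preadipocytes, miR-181a and miR-181b, members of a family that tunes lymphocyte signalling, passed with lower levels, at -1.65 (adjusted p = 0.0277) and -1.76 (adjusted p = 0.0263, limma), beside 3.18% of all 157. In lithium against preadipocytes, miR-181b at -1.54 (adjusted p = 0.0191) and miR-155 at -1.42 (adjusted p = 0.0382, limma) passed with lower levels, beside 6.37% of all 157. In lithium plus MDI against preadipocytes, miR-27a passed with a higher level, at 1.31 (adjusted p = 0.0133, limma), beside 1.27% of all 157. The preadipocytes share no slide with the lithium groups, and with slide as a block 0 members passed in each of these 3 comparisons.

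These counts moved with single arrays, along with the counts over all 157. The 2 of MDI against preadipocytes were 0, with 0 of all 157, without MDI array 2 or 3 or preadipocyte array 1 or 2. They were 6 (18 of all 157) and 5 (12 of all 157) with lithium plus MDI arrays 3 and 2 left out in turn, 1 (2 of all) without lithium array 3 and 3 (5 of all) without preadipocyte array 3. The 2 of lithium against preadipocytes were 0 without lithium array 2 or 3 or preadipocyte array 1 or 2, when 6, 2, 5 and 3 of all 157 passed. They were 1 without any MDI array or lithium plus MDI array 1 (9 to 11 of all), 4 without preadipocyte array 3 (33 of all) and 6 without lithium array 1 (26 of all). The single call in lithium plus MDI against preadipocytes was lost without lithium plus MDI array 1 or preadipocyte array 1, with 0 of all 157, and leaving out lithium plus MDI array 3 raised it to 6, with 36 of all 157. The list's 4 members named here as examples have known roles in fat cells or in the response to low oxygen, and none passed for MDI on average. They were miR-103 at -0.82 (adjusted p = 0.142), miR-107 at -0.66 (adjusted p = 0.152), miR-26a at -0.41 (adjusted p = 0.191) and miR-181b at -0.56 (adjusted p = 0.162, limma).

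**Figure D4:**
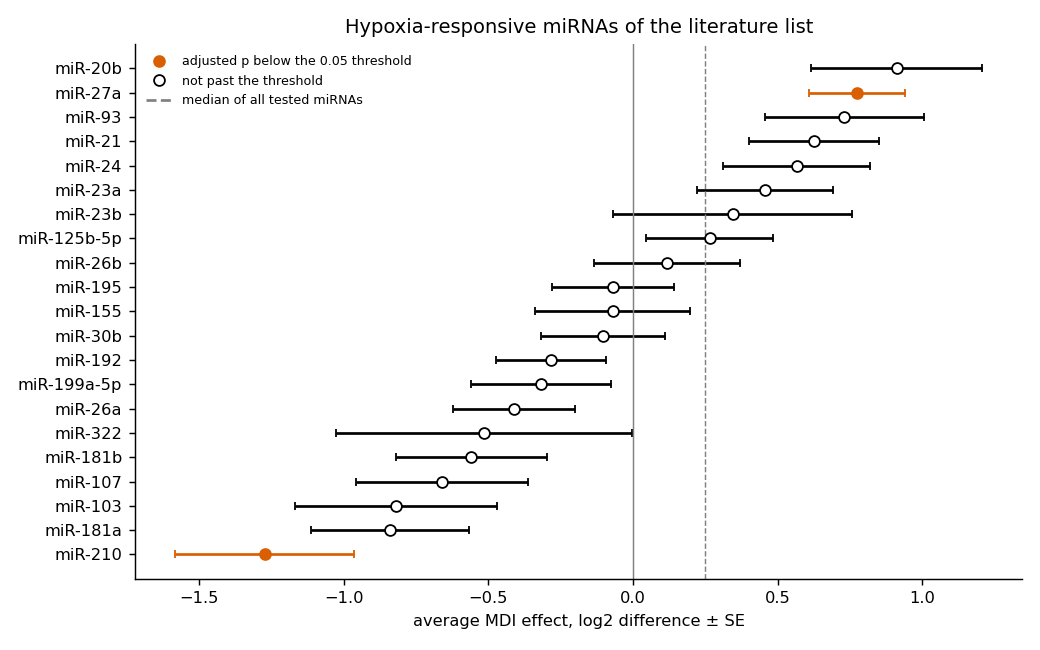
Average MDI difference (log2, horizontal axis) of the 21 tested members of the hypoxia list, with the SE as bars, filled points for an adjusted p under the threshold and a dashed line at the median of all tested miRNAs. The members spread from -1.27 for miR-210 to 0.91 for miR-20b, and the 2 filled points are miR-210 and miR-27a, on opposite sides of 0.

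The study followed miR-148a, miR-194 and miR-322 along with miR-210, and it chose these on the same samples, so their values are no independent evidence. On average over lithium, the level with MDI differed by -0.67 for miR-148a, which promotes fat cell formation (adjusted p = 0.142, limma). For miR-322, the mouse form of miR-424, it differed by -0.51 (adjusted p = 0.468, limma). For miR-148a the difference was -0.83 without lithium (adjusted p = 0.296) and -0.51 with it (adjusted p = 0.387, limma). For miR-322 it was 0.19 without lithium (adjusted p = 0.871) and -1.22 with it (adjusted p = 0.253, limma). The miR-322 levels of the preadipocytes were -1.28, -0.94 and 2.05, and without the last, array 3, the difference without lithium was 1.24 (adjusted p = 0.156) and the average 0.01 (adjusted p = 0.990, limma). No probe of miR-194 was detected on any array. Of these 4 miRNAs, miR-210 was the only one past the threshold in the average.

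The miRNAs whose pattern over the 12 arrays was most like that of miR-210 were found by Pearson's r of the normalized log2 values, which share arrays, scaling and groups, and are given as a description. Over the 156 other tested miRNAs the median r was -0.23, and 3 were above 0.8. The highest were miR-10b, which lies in a Hox gene cluster, and miR-181a, both at 0.87. Then came miR-455 at 0.84 (at the floor on 1 array, MDI array 3), miR-30d at 0.76 and miR-99a at 0.74. Without lithium plus MDI array 3 the first 4 named here stood at 0.87, 0.89, 0.84 and 0.77, still the 4 highest. There miR-99a stood at 0.73 and ranked 6. For miR-10b the average MDI difference was -1.07 (adjusted p = 0.0452, limma), with -1.87 in cells without lithium (adjusted p = 0.0263) and -0.28 with it (adjusted p = 0.635). For miR-181a the difference with lithium was -0.03 (adjusted p = 0.960, limma). The miR-10b call for the average was kept without lithium array 1 or lithium plus MDI array 3 and lost without any 1 of the other 10 arrays, with adjusted p-values of 0.0558 to 0.152 (limma). In cells without lithium it was lost without MDI array 2 or 3 or preadipocyte array 1 or 2. In miR-99a it was -2.14 without lithium (adjusted p = 0.0830) and -1.18 with it (adjusted p = 0.235, limma).

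At the other end, miR-31*, the lesser arm of miR-31, had the lowest r, at -0.90, and -0.91 without lithium plus MDI array 3. Its average MDI difference was 1.06 (adjusted p = 0.0291, limma), with 1.40 in cells without lithium (adjusted p = 0.0277). Next were miR-18a, from a cluster of miRNAs that promote growth, and miR-877, both at -0.88. They were at the floor on 5 and 4 of the 12 arrays, so part of their pattern is a bound. For miR-18a the average MDI difference was 1.29 (adjusted p = 0.0291, limma). The averages of miR-31* and miR-18a missed the threshold without preadipocyte array 1, 2 or 3, MDI array 3, lithium array 2 or 3, or lithium plus MDI array 1 or 2 (adjusted p-values of 0.0554 to 0.108), and that of miR-18a also without MDI array 1 (0.0659). The miR-31* difference without lithium was lost without MDI array 2 or 3, lithium array 3 or any preadipocyte array.

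**Figure D5:**
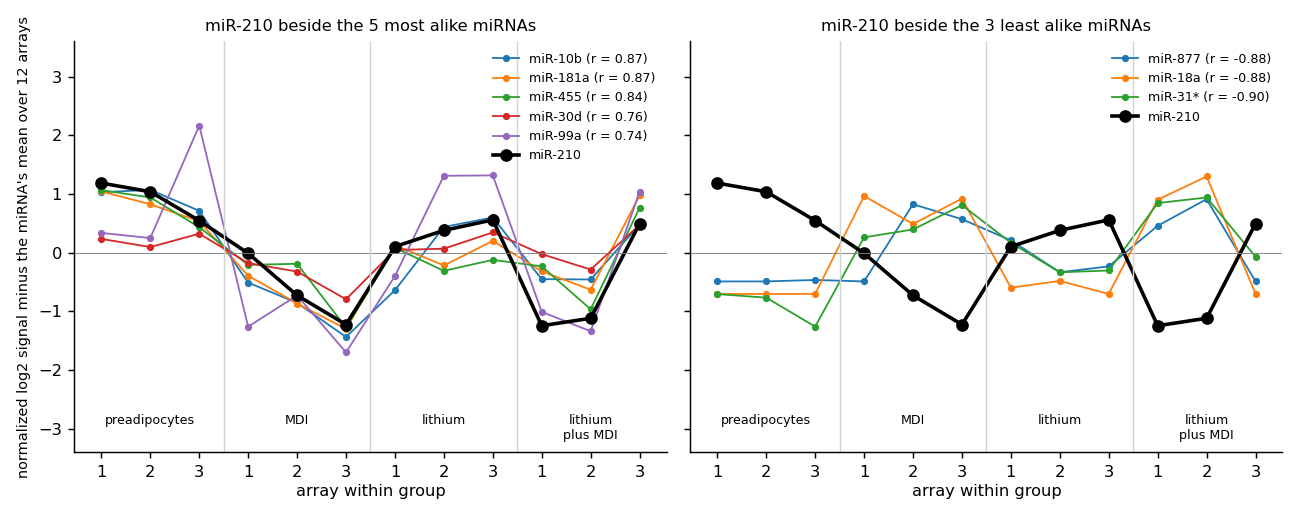
Normalized log2 signal minus each miRNA's own mean over the 12 arrays (vertical axis), by array within group, for miR-210 in black with the 5 miRNAs most like it on the left and the 3 least like it on the right. On lithium plus MDI array 3 the black line returns to the height of the lithium arrays, and the 5 lines on the left rise there too.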

How the data were processed

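The authors deposited 1 scanner text file per array, whose intensity column holds spot signals that Agilent Feature Extraction had background-subtracted and not scaled between arrays, per the file headers (version 10.5.1.1; the submitters' processing notes name 9.5.3). They also deposited a value table, read as log2 because each column correlated at r of 0.997 or above with the log2 total signal. These correlations ran over the 234 to 242 miRNAs of an array with both values above a set minimum. The column medians over all 611 miRNAs are 0.0018 to 0.0958. Since 406 of the 611 were detected on no array, these medians do not show how the arrays were scaled. The background and scaling steps of the value table are not given in the sources used here. A further 0 columns of no known sample were set aside.

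Spots marked as outliers were dropped, the other spots of a probe averaged, and each array scaled to its 75th percentile, taken over the 181 mouse probes that all 12 arrays detected. Values under the 5th percentile of detected signals were set to that floor, -4.97 in log2. A probe was detected where most of the spots kept passed the scanner's background test, the brightest probe stood for a miRNA, and the 157 miRNAs detected on all 3 arrays of some group were tested. No control spot was used, and 0 mouse spots were saturated. There is no counting depth on arrays, and the number of arrays limits the precision.

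The fit used limma 3.58.1 in R 4.3.3 (lmFit, eBayes, two-sided, 4 group means, no block; Benjamini-Hochberg). Exact permutation tests were run in Python 3.11.15 and figures drawn with matplotlib 3.10.9. Both tests were tested on simulated data. The members and lists were chosen with earlier results of these data known. Named were miR-210, the members of the hypoxia list that passed plus 4 examples, the study's list, and the 5 miRNAs most and the 3 least correlated with miR-210; ranks among miRNAs within a group were left out because levels of different probes are not comparable. miR-20b, on the plot of the hypoxia list, and miR-10b as a lower call were named after their values were seen. Alternatives changed the scaling, background correction, value table, probe, filter, slide, replicate block and arrays included. Replicate numbers of the titles were not taken as pairs in the main fit. Of 18 pairs of same-numbered arrays, 9 had deviations correlated above 0.1, with a lowest r of -0.482 and a highest of 0.473. These values do not settle whether the samples were paired.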

Additional observations from a re-analysis of the deposited data

How the results depend on the processing

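The MDI difference of miR-210 averaged over lithium was below 0 in all 24 alternatives, from -1.76 to -0.42. Its exact permutation test within the lithium strata gave p of 0.005 to 0.035 in 19 alternatives, none of which took slide into account. Its limma call was lost without scaling (-1.74), with normexp (-0.62), with normexp without 5 spots of extreme background on preadipocyte array 1 (-0.42), on the authors' table (-1.49), with the mean of both probes (-1.17), with the dimmer probe (-1.07), with no filter (-1.27, more miRNAs tested) and with slide as a block (-0.95). The replicate block left it at -1.27 with an adjusted p of 0.0503, so the call was lost there too. It passed with quantile normalization (-1.55) and the 75th percentile of all mouse probes (-1.76). That percentile gave calls at -2.39 for MDI against preadipocytes, -1.47 for lithium against preadipocytes and -2.59 for lithium plus MDI against preadipocytes, and no scaling gave a call at -2.48 for MDI against preadipocytes. In MDI against preadipocytes that percentile moved the split of all calls from 2 higher and 3 lower to 1 higher and 47 lower, and in lithium against preadipocytes from 8 and 2 to 4 and 74. The median of all tested miRNAs moved too. For MDI against preadipocytes it was -0.64 with that percentile and -0.70 without scaling. Relative to it miR-210 stood at -1.75 and -1.78, against -1.68 in the main fit. For lithium plus MDI against preadipocytes the median was -0.65 with that percentile. There miR-210 stood at -1.94 relative to it, against -1.85 in the main fit. Without the 3 arrays that stood apart, calls were made for MDI against preadipocytes (-1.77), lithium against MDI (1.12) and lithium plus MDI against both preadipocytes (-2.29) and lithium (-1.65). Those 3 arrays were picked on the same values, for the lowest mean correlation with their own group. Leaving them out lowers the spread within groups by that choice, so these calls are no added evidence. The same holds for the smaller p-values without lithium plus MDI array 3 alone. The cause of these changes was not tested. Slide as a block turned the sign of lithium against preadipocytes (0.39), the average lithium difference (0.37) and the interaction (-0.036). Lithium plus MDI against MDI turned with quantile normalization (-0.24), the percentile of all probes (-0.21), normexp (-0.019, and -0.018 without the extreme spots), the authors' table (-0.28) and without the 3 arrays (-0.53). The F statistic of the 4 groups lost its call with normexp (2.13, and 2.78 without the extreme spots). Leaving out 1 array in turn gave -1.90 to -1.29 for MDI against preadipocytes. It gave -1.53 to -0.66 for lithium plus MDI against lithium, -0.53 to 0.35 for lithium plus MDI against MDI, -2.10 to -1.23 for lithium plus MDI against preadipocytes, -1.55 to -1.12 for the average MDI difference, -0.55 to -0.11 for lithium within the MDI strata and 3.22 to 15.0 for F, whose call was kept without MDI array 1 or lithium plus MDI array 3. The filter on detection on all 12 arrays gave no value, since miR-210 was detected on 11.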
